A study of Mus musculus with 12 samples.

Results

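Long-chain fatty acids enter mitochondria in steps carried out by a small set of proteins, and their transcripts were followed here in mouse medulloblastoma cells under an HDAC inhibitor. The set was named by symbol and holds the carnitine palmitoyltransferases Cpt1a, Cpt1b, Cpt1c and Cpt2, the carnitine-acylcarnitine carrier Slc25a20, and the long-chain acyl-CoA synthetases Acsl1, Acsl3, Acsl4, Acsl5 and Acsl6. Of these 10 genes, 7 had a probe set that names that gene alone, out of 22180 genes with such a probe set on the array. These were Cpt1a, Cpt1c, Cpt2, Slc25a20, Acsl4, Acsl5 and Acsl6. The probe set of Cpt1b was shared with Chkb and Gm44502, that of Acsl3 with Utp14b, and none was listed for Acsl1, so these 3 genes were not analysed here. Only Acsl6 had more than 1 probe set of its own, and the one with the highest mean over the 12 arrays was used. Apart from this probe set, selected on its mean, no member was chosen by a measured value, but the set itself was proposed with results of these arrays known.

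The cells, called MP, are from a mouse model of Group 3 medulloblastoma driven by MYC. They grew as cerebellar tumours in immunodeficient NSG mice and were dissociated and plated in a neural culture medium with a proliferation supplement. Cultures of 3 tumours (MP525, MP567 and MP570) received 25 nM LBH589 (panobinostat), a drug that blocks histone deacetylases, or 0.00025% DMSO, its solvent, and were lysed after 6 or 12 h. The groups were LBH589 for 6 h, DMSO for 6 h, LBH589 for 12 h and DMSO for 12 h, with 1 array of each tumour in every group, 12 in all. All cultures, those with DMSO included, were of MP tumour cells; no culture of normal cerebellar cells or of another tumour type was analysed here. Each tumour is a separate source, so p-values of drug and time without a block measure the spread between 3 tumours; tests between tumours rest on the arrays within each, 2 per treatment (6 h and 12 h).

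Expression is given as log2 values per gene, measured on Affymetrix whole-transcript arrays, whose number limits the precision. Array medians lay between 7.10 and 7.21. Of 9 Group 3 medulloblastoma markers, all were on the array, with a summed linear level of 4730 to 6280 in LBH589 and 6680 to 8720 in DMSO at 6 h, and 4560 to 6110 and 7740 to 8340 at 12 h. Npr3, a receptor gene typical of this tumour group, fell by 1.63 ± 0.26 on the log2 scale at 6 h (limma adjusted p = 0.00165), whereas the photoreceptor markers Crx, Nrl and Impg2 stayed at log2 values of 5.90 to 7.08 in all arrays, dimmer than most probe sets. The 8 neural stem and progenitor markers summed to 5470 to 6090 in LBH589 and 6310 to 7380 in DMSO at 6 h, and to 5300 to 6350 and 6390 to 6790 at 12 h. Both sums were lower in LBH589 at both times with no overlap. Of the 9 Group 3 markers, only Npr3 was called lower without the block at either time, and 3 with it, with 0 higher. Myc stood at 0.09 and 0.21 and was not called (limma adjusted p = 0.696 and 0.26). The mean log2 level of this list was also lower, at 7.90 to 8.01 in LBH589 and 8.20 to 8.47 in DMSO at 6 h. At 12 h it was 7.96 to 7.97 and 8.20 to 8.43. The mean log2 level of the stem and progenitor list did overlap, at 9.10 to 9.25 in LBH589 and 9.06 to 9.54 in DMSO at 6 h, and 9.05 to 9.43 and 8.94 to 9.44 at 12 h. Its bright gene Msi1 fell by 1.02 ± 0.13 at 6 h (limma adjusted p = 0.000624), while Nes stood at 0.77 and 1.19 at 6 and 12 h and passed the test in the fit with tumours as blocks (limma adjusted p = 0.0322 and 0.0022) but not without (0.437 and 0.184). The part of these markers in the results below was not tested. Of 7 markers of mature cerebellar neurons on the array, Gabra6 was below the 25th percentile of every array. Rbfox3 was bright, at log2 values of 9.42 to 9.82 in LBH589 and 9.63 to 10.59 in DMSO. Without the block, 0 of the 6 tested were called at 6 h. At 12 h Calb1 (0.72, limma adjusted p = 0.00342) and Car8 (0.42, 0.0229) were called higher and Rbfox3 lower (-0.72, 0.0317). The shares over all tested genes at 12 h were 9.13% higher and 9.07% lower. Summed levels of astrocyte, oligodendrocyte, microglial and endothelial markers overlapped between LBH589 and DMSO at both times, though single markers were called higher. These were Sox9 (0.84 and 0.90 at 6 and 12 h), Cnp (0.76 and 1.02), Kdr (0.81 and 0.71) and, at 12 h, Cd68 (0.71). With the block, 4 of 8 endothelial markers were called higher at 12 h and 0 lower. In that fit 2 of 8 astrocyte markers were called higher and 3 lower, and 1 of 9 microglial markers higher and 2 lower. Of 7 oligodendrocyte markers, 2 were called higher and 0 lower. The shares over all tested genes were 18.6% higher and 18.5% lower. In such bulk RNA, fewer cells of a type and less RNA per cell cannot be told apart.

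A fatty acid is first joined to coenzyme A by an acyl-CoA synthetase (ACSL). CPT1 on the outer mitochondrial membrane then passes the acyl group to carnitine in the step that limits the rate, and malonyl-CoA, an intermediate of fatty acid synthesis, inhibits it. The carrier Slc25a20 brings acylcarnitine across the inner membrane, and CPT2 returns the acyl group to coenzyme A inside, where beta-oxidation shortens it. Cpt1a is the form of most tissues, Cpt1b that of muscle, and Cpt1c that of neurons, where the protein sits mainly in the endoplasmic reticulum and has little activity.

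LBH589 cultures held far more Cpt1a transcript and far less Acsl5 transcript than DMSO cultures at both times. Both genes were included with this response in these arrays already known, so its size is described and not tested. Among the other 5 measured genes, Cpt2 was higher and Acsl6 lower in LBH589, while Cpt1c, Acsl4 and Slc25a20 passed no test without the tumours as a block. At 6 h, 1 of the 5 was called higher and 0 lower (limma, Benjamini-Hochberg adjusted p under 0.05 over 18652 genes), when 15.8% of all tested genes were called, 8.49% of them higher and 7.31% lower. At 12 h, 1 was called higher and 1 lower, when 18.2% of all genes were called, 9.13% higher and 9.07% lower. With the tumour as a block, 2 of the 5 were called higher and 1 lower at 6 h, against 18.0% and 16.0% of all genes (34.0% in all), and 1 and 1 at 12 h, against 18.6% and 18.5% (37.1% in all). With 5 genes, these counts are not far from such shares, and the results below rest on the single genes.

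**Figure D1:**
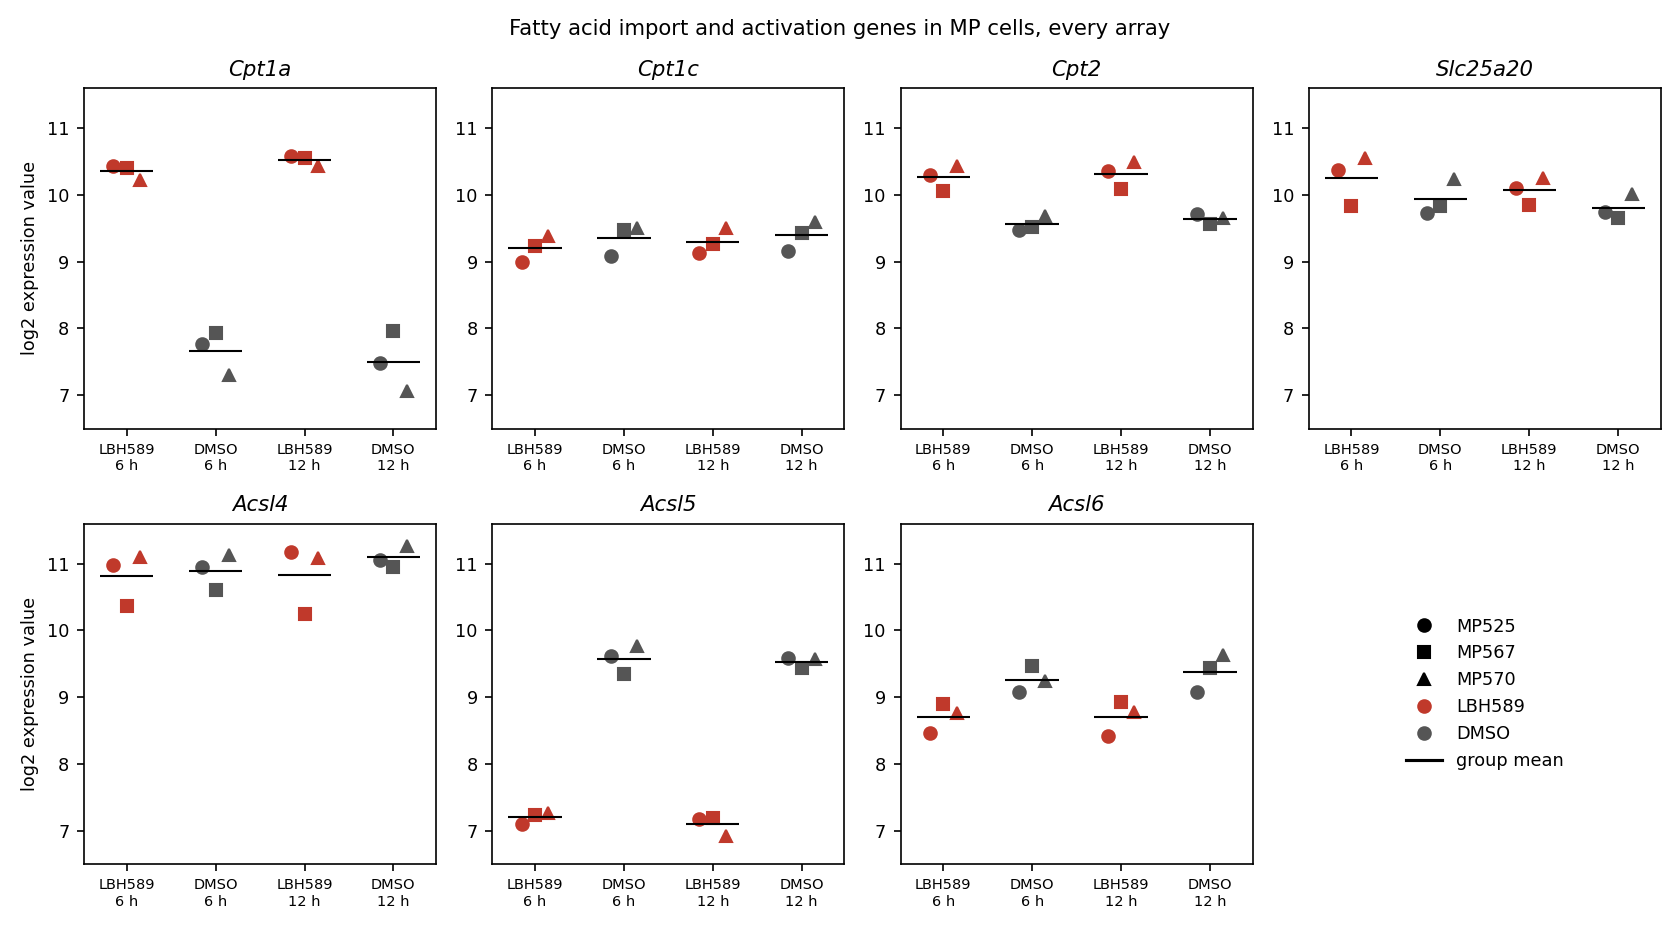
Log2 expression value (vertical axis) of each measured gene on every array. LBH589 arrays are red and DMSO arrays grey, symbols mark the 3 tumours, and lines are group means (n = 3). Cpt1a lies between 10.23 and 10.59 in LBH589 and between 7.06 and 7.96 in DMSO, and Acsl5 between 6.92 and 7.26 in LBH589 and between 9.34 and 9.77 in DMSO.

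Among the synthetases, Acsl5 encodes a form found on mitochondria and the endoplasmic reticulum. At 6 h its log2 values were 7.10, 7.24 and 7.26 in the LBH589 arrays of MP525, MP567 and MP570, against 9.62, 9.34 and 9.77 in their DMSO arrays. At 12 h they were 7.18, 7.19 and 6.92 in LBH589, against 9.59, 9.44 and 9.57 in DMSO. Every LBH589 array lay over 2 log2 units below the DMSO array of its tumour and time. The log2 fold change was -2.38 ± 0.13 at 6 h and -2.44 ± 0.13 at 12 h (LBH589 over DMSO, ± SE, n = 3 each), so Acsl5 was 5.19-fold and 5.41-fold lower in LBH589. Only 1 tested gene at 6 h and 3 at 12 h had a more negative fold change. Under LBH589 the Acsl5 values were near the array medians, and none was under the 25th percentile of its array. Markers of muscle and liver, tissues not sampled here, lay close to that level. In LBH589 the mean log2 level of the striated muscle list was 6.84 to 6.85 at 6 h and 6.90 to 7.15 at 12 h. For the hepatocyte list it was 6.84 to 6.89 and 6.87 to 6.94. Whether a floor of the array limits the size of the fall was not tested.

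Acsl6, the synthetase of brain that handles polyunsaturated fatty acids, also had lower values in LBH589. They were 8.46, 8.90 and 8.76 in LBH589 (MP525, MP567 and MP570) against 9.08, 9.46 and 9.24 in DMSO at 6 h. At 12 h they were 8.42, 8.92 and 8.77 in LBH589 against 9.08, 9.44 and 9.63 in DMSO. The groups did not overlap at either time, as held for 32.9% of all tested genes at 6 h and 32.0% at 12 h. Acsl6 fell by 0.68 ± 0.19 on the log2 scale at 12 h (limma adjusted p = 0.0254, or 8.14e-05 with the tumour as a block). The change of -0.55 ± 0.19 at 6 h missed the threshold (adjusted p = 0.0669) and passed it with the block (0.000491). Fits of LBH589 against DMSO with arrays or tumours left out, here and below, had no block. Acsl6 was no longer called at 12 h when the LBH589 array of MP525 (adjusted p = 0.0902) or MP570 (0.0537) was left out, nor without the DMSO array of MP567 (0.0716) or MP570 (0.0979), or without tumour MP567 (0.0615) or MP570 (0.226). A second, dimmer probe set of Acsl6, with a mean of 6.34 against 9.01, had log2 fold changes of -0.09 at 6 h and -0.22 at 12 h that were not called (limma adjusted p = 0.789 and 0.411).

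Acsl4 encodes the synthetase that prefers arachidonic acid and thereby feeds it into membrane phospholipids. Its values were 10.98, 10.37 and 11.10 in LBH589 (MP525, MP567 and MP570) against 10.95, 10.61 and 11.13 in DMSO at 6 h. At 12 h they were 11.17, 10.24 and 11.09 in LBH589, against 11.06, 10.95 and 11.27 in DMSO. The groups overlapped at both times, with the low values of each coming from MP567. The log2 fold changes of -0.08 (95% interval -0.64 to 0.48) and -0.26 (-0.82 to 0.30) were not called (limma adjusted p = 0.899 and 0.563). These intervals leave room for a change of either direction. With the tumour as a block they were -0.33 to 0.18 and -0.51 to -0.01, also not called (limma adjusted p = 0.686 and 0.105).

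The synthetases thus differed in response. Within each tumour, the log2 fold change of Acsl5 minus that of Acsl4 averaged -2.30 ± 0.38 at 6 h and -2.18 ± 0.56 at 12 h (SD, n = 3 tumours). Acsl5 minus Acsl6 averaged -1.82 ± 0.26 and -1.76 ± 0.03. Both differences follow from the known response of Acsl5 and carry no test. Acsl6 minus Acsl4 averaged -0.48 ± 0.16 at 6 h and -0.42 ± 0.54 at 12 h, and 1 tumour, MP567, had a difference of 0.20 at 12 h. At 6 h the difference was negative in all 3 tumours, at -0.65, -0.33 and -0.44. A two-sided exact permutation of the treatment labels, which leaves out the pairing by tumour, gave p = 0.3 and 0.4. With 3 arrays against 3 it cannot go below 0.1, so this test could make no call and decides nothing. No test that keeps the pairing was run on this difference.

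**Figure D2:**
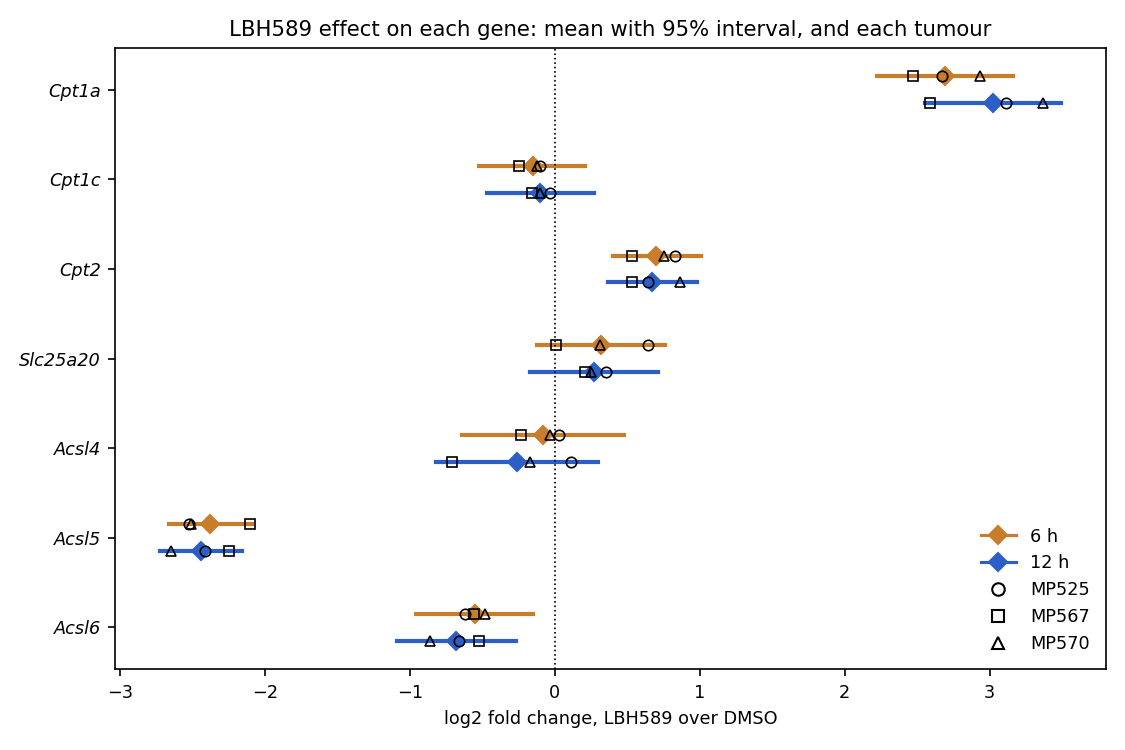
Log2 fold change of LBH589 over DMSO (horizontal axis) for each measured gene. Filled diamonds are means over 3 tumours with 95% intervals, orange for 6 h and blue for 12 h, and open symbols are single tumours. Cpt1a stands at 2.69 and 3.02, Acsl5 at -2.38 and -2.44, and the other 5 genes between -0.68 and 0.70.

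Cpt1a, the rate-limiting form of CPT1, was the gene with the highest fold change of all 18652 tested at both times. Its log2 values at 6 h were 10.44, 10.40 and 10.23 in LBH589 (MP525, MP567 and MP570), against 7.76, 7.93 and 7.30 in DMSO. At 12 h they were 10.59, 10.55 and 10.43 in LBH589, against 7.48, 7.96 and 7.06 in DMSO. No LBH589 array came within 2 log2 units of a DMSO array. The log2 fold change was 2.69 ± 0.21 at 6 h (95% interval 2.22 to 3.16) and 3.02 ± 0.21 at 12 h (2.55 to 3.49), which are 6.46-fold and 8.12-fold. The 6 LBH589 arrays spanned 0.36 log2 units, while the 6 DMSO arrays spanned 0.90. In DMSO the Cpt1a values lay above the mean log2 levels of striated muscle and hepatocyte markers (6.77 to 6.96). They were in the range of single such markers, as Tnnt3 (7.62 to 7.71) and Apoa1 (7.73 to 7.95). Whether a floor of the array shapes the size of the rise, or the differences between tumours in DMSO, was not tested.

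Cpt1c, the neuronal form, did not follow. It had log2 values of 9.00 to 9.39 in LBH589 against 9.09 to 9.51 in DMSO at 6 h, and 9.13 to 9.50 against 9.16 to 9.60 at 12 h. The groups overlapped almost wholly, though LBH589 was the lower of each pair in all 3 tumours at both times, by 0.03 to 0.25. The log2 fold changes of -0.15 (95% interval -0.52 to 0.21) and -0.10 (-0.47 to 0.27) were not called (limma adjusted p = 0.626 and 0.756, or 0.18 and 0.399 with the tumour as a block). Cpt1a minus Cpt1c averaged 2.85 ± 0.18 log2 units at 6 h and 3.12 ± 0.36 at 12 h (SD, n = 3 tumours), a description that follows from the known response of Cpt1a.

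Cpt1a and Acsl5 moved furthest and in opposite directions, so the stretches before their start sites are shown side by side. Both genes lie on chromosome 19, and each stretch holds the 250 bases upstream of a RefSeq start on GRCm38.p6, read 5′ to 3′ on the plus strand. That of Cpt1a is chr19:3323051-3323300 and that of Acsl5 is chr19:55253119-55253368. Both windows lie inside the RefSeq gene spans, which begin at 3322326 for Cpt1a and 55251861 for Acsl5. The stretches upstream of those outer gene ends are not shown. Capitals mark matches to the GC box (GGGCGG), which SP1 family factors bind, and to the CCAAT box (CCAAT), each searched on both strands.
Cpt1a: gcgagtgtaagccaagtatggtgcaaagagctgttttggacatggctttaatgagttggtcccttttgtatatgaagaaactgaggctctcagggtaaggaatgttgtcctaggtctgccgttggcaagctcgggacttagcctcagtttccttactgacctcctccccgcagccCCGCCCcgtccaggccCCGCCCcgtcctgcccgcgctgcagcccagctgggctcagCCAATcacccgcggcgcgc
Acsl5: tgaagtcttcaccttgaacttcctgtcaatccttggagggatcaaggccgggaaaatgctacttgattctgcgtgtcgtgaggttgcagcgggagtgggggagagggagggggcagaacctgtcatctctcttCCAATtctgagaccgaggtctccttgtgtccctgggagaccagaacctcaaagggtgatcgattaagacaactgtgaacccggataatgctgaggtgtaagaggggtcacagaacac
The Cpt1a stretch held 2 GC boxes, both read on the opposite strand, and 1 CCAAT box, with 59.6% G and C and 14 CpG. The Acsl5 stretch held 1 CCAAT box and no match to the GC box, with 52.8% G and C and 7 CpG. Among the 32851 RefSeq promoters of the same length, 32.7% held a GC box and 33.8% a CCAAT box, and the medians were 52.4% G and C and 6 CpG. Neither stretch matched the TATA box (TATAAA), the E-box (CACGTG) that MYC binds, or the FOXO motif (TGTTTAC), found in 12.4%, 6.0% and 3.2% of promoters. These matches are letters in a window and were not set against any binding data. Of the 10 genes, 9 had a promoter in the table, with 12 start sites between them.

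Slc25a20, the carrier between the CPT1 and CPT2 steps, had small positive fold changes. Its log2 values at 6 h were 10.37, 9.84 and 10.55 in LBH589 (MP525, MP567 and MP570), against 9.73, 9.83 and 10.24 in DMSO. At 12 h they were 10.10, 9.85 and 10.26 in LBH589, against 9.75, 9.65 and 10.02 in DMSO. LBH589 was the higher of each pair in all 3 tumours, by as little as 0.01 in MP567 at 6 h, while the groups overlapped. The log2 fold changes were 0.32 ± 0.20 after 6 h and 0.27 ± 0.20 after 12 h (limma adjusted p = 0.352 and 0.419). With the tumour as a block, the adjusted p was 0.0298 at 6 h, which is a call, and 0.0586 at 12 h.

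Cpt2, which releases the acyl group inside the mitochondrion, rose at both times. Its log2 values at 6 h were 10.30, 10.06 and 10.44 in LBH589 (MP525, MP567 and MP570), against 9.47, 9.52 and 9.69 in DMSO. At 12 h they were 10.36, 10.09 and 10.50 in LBH589, against 9.72, 9.57 and 9.65 in DMSO. Each tumour had the higher value in LBH589, and the groups did not overlap. The rise was 0.70 ± 0.14 at 6 h (1.63-fold, limma adjusted p = 0.00551) and 0.67 ± 0.14 at 12 h (1.6-fold, adjusted p = 0.00598). It stayed called without each single array (highest adjusted p 0.0295 at 6 h and 0.0278 at 12 h). It was not called without tumour MP525 (0.116 at 6 h and 0.0755 at 12 h) or MP570 (0.0691 and 0.0891), where the rise was 0.58 to 0.69. Those fits leave out the pairing by tumour. With all arrays and the tumour as a block, the limma adjusted p was 4.44e-05 at 6 h and 5.58e-05 at 12 h.

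None of the 7 genes was called for a change between 6 and 12 h. In LBH589, 12 h against 6 h ranged from -0.18 (Slc25a20) to 0.17 (Cpt1a) on the log2 scale, and the lowest unadjusted limma p was 0.395. In DMSO it ranged from -0.16 (Cpt1a) to 0.20 (Acsl4), with a lowest unadjusted p of 0.452. The LBH589 effect at 12 h minus that at 6 h ranged from -0.18 (Acsl4) to 0.33 (Cpt1a), with a lowest unadjusted p of 0.296. These 3 comparisons share arrays with each other and with the drug effects. For Cpt1a the difference of 0.33 ± 0.30 (95% interval -0.33 to 0.99) was positive in all 3 tumours, at 0.43, 0.12 and 0.44 in MP525, MP567 and MP570, and was not called with the block either (limma adjusted p = 0.621). Over all genes, limma called 0% for 12 h against 6 h in LBH589, 0.0214% in DMSO and 0% for the difference of effects. At an unadjusted p under 0.05 these counts were 1415, 412 and 490 genes. The block raised the calls to 371 genes (1.99%), 58 (0.311%) and 2 (0.0107%), with none of the 7 among them.

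The tumours differed in how much of these transcripts they held. By a limma F test of tumour level within groups, 5 of the 7 genes were called, when 37.4% of all genes were. These were Cpt1a (adjusted p = 0.0155), Cpt1c (0.00168), Slc25a20 (0.00301), Acsl4 (0.000717) and Acsl6 (0.00258), and not Cpt2 (0.0515) or Acsl5 (0.816). Cpt1a was not called without either DMSO array of MP570 (highest adjusted p 0.0777). The order differed from gene to gene. Between pairs of tumours, 27.3% of all genes were called for MP567 against MP525, 18.8% for MP570 against MP525 and 25.2% for MP570 against MP567. Slc25a20 averaged 10.27 in MP570, 9.99 in MP525 and 9.79 in MP567, with neighbours MP525 and MP567 not called apart (limma adjusted p = 0.134). Acsl4 averaged 11.15 in MP570 and 11.04 in MP525 (adjusted p = 0.552), and 10.54 in MP567. For Acsl6 MP525 was lowest, with 9.18 in MP567 and 9.10 in MP570 (adjusted p = 0.567), and 8.76 in MP525. Cpt1c averaged 9.50 in MP570 and 9.35 in MP567 (adjusted p = 0.146), and 9.10 in MP525. Acsl5 stayed between 8.30 and 8.38.

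Cpt1a differed between tumours mainly in DMSO. Its mean over both times was 10.51, 10.47 and 10.33 in LBH589 in MP525, MP567 and MP570, against 7.62, 7.95 and 7.18 in DMSO. MP570, the lowest of the 3 in DMSO, had the largest effect, at 3.15, against 2.89 in MP525 and 2.53 in MP567, the highest in DMSO. The F test of the effect between tumours gave an adjusted p of 0.0501 for Cpt1a and called 4.35% of all genes. The effect in MP570 minus that in MP567 was 0.62 ± 0.14 and was called (limma adjusted p = 0.034, with 2.45% of all genes called for this pair). MP570 minus MP525 was 0.26 ± 0.14 and was not (adjusted p = 0.575, with 0.488% of all genes called).

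For Acsl4 the drug effect itself differed between tumours, in a test with 4 residual degrees of freedom in which the 2 times of a tumour serve as its replicates. It averaged 0.07 in MP525, -0.47 in MP567 and -0.10 in MP570 over both times (F test adjusted p = 0.0426). MP567 minus MP525 was -0.55 ± 0.12 (limma adjusted p = 0.023, with 4.42% of all genes called for this pair). The F test called Acsl4 in 9 of 20 settings, the reported one included, with adjusted p of 0.027 to 0.295. It did not call Acsl4 without any 1 of 8 arrays, namely LBH589 at 12 h in each tumour (MP567 giving the 0.295), LBH589 at 6 h of MP570, and either DMSO array of MP525 or MP567. The effects of Cpt1c, Cpt2, Slc25a20, Acsl5 and Acsl6 were not called as different between tumours (adjusted p of 0.787, 0.393, 0.234, 0.31 and 0.872).

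**Figure D3:**
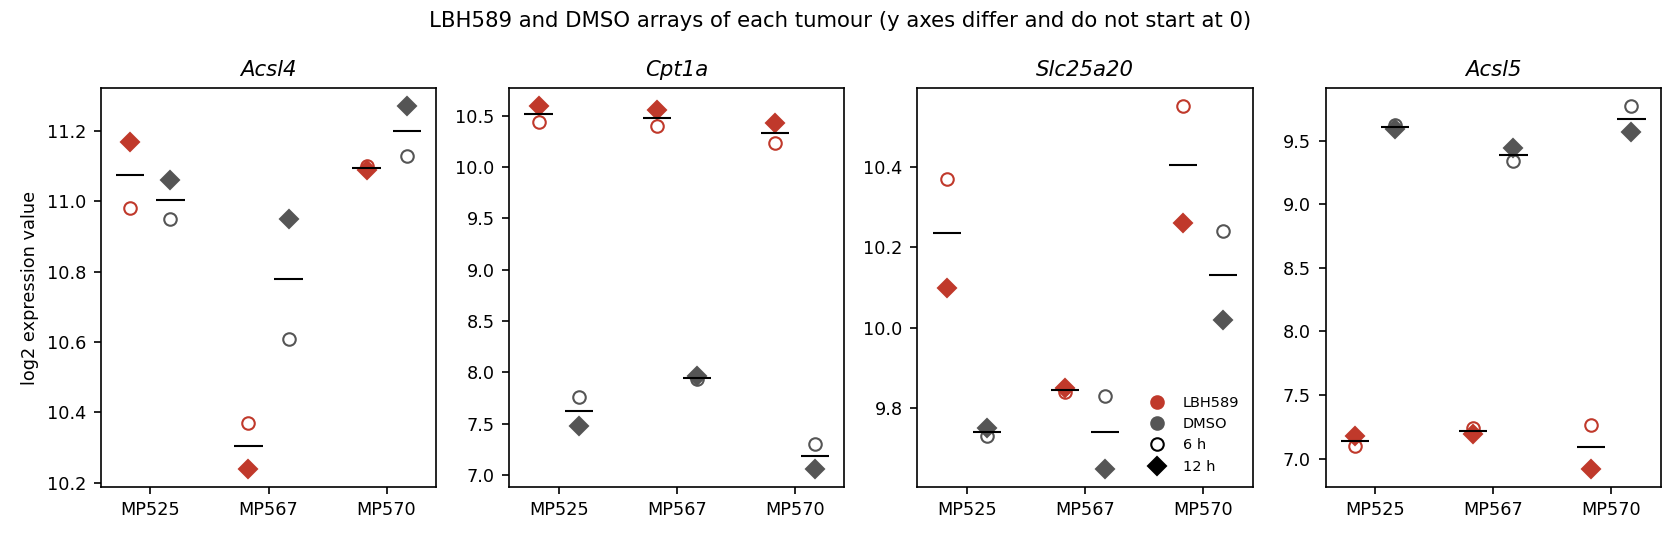
Log2 expression value (vertical axes, which differ) of Acsl4, Cpt1a, Slc25a20 and Acsl5 in each tumour. LBH589 is red and left of DMSO in grey, open circles are 6 h, filled diamonds 12 h, and lines are means of both times. For Acsl4 the LBH589 mean lies below DMSO in MP567 (10.30 against 10.78) and above it in MP525 (11.08 against 11.00).

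The genes with the pattern most like Cpt1a over the 12 arrays were Aph1c, Wfs1 and Stom (Pearson r of 0.992, 0.990 and 0.989), and those most like Acsl5 were Gtf2i, Rhobtb3 and Aven (0.991 each). On deviations from the tumour means they were Ndrg3, Abat and Wfs1 for Cpt1a (0.995 each), and AW209491 (0.996), Fads2 (0.995) and Aven (0.995) for Acsl5. These values describe arrays that fall into LBH589 and DMSO, so r mostly reflects the step between treatments. Log2 fold changes of the genes like Cpt1a were 0.59 to 1.81 at both times, and those of the genes like Acsl5 -0.91 to -1.62, all smaller than those of Cpt1a and Acsl5.

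Neighbouring steps of fatty acid metabolism were described from 13 lists of 204 genes, of which 191 were tested. At 6 h, 25 of these (13.1%) were called higher and 12 (6.28%) lower in LBH589, and at 12 h 32 (16.8%) and 20 (10.5%). The same shares over all genes were 8.49% and 7.31% at 6 h, and 9.13% and 9.07% at 12 h. In the blocked fit, 50 and 32 list genes were called at 6 h, and 55 and 35 at 12 h. That fit called 18.0% of all genes higher and 16.0% lower at 6 h, and 18.6% and 18.5% at 12 h. The blocked counts of each list below stand against these larger shares. Without MP525 the counts were 9 and 5 at 6 h and 17 and 9 at 12 h, and without MP570 they were 11 and 3 at 6 h and 9 and 8 at 12 h. Over all genes the calls also fell, to 1018 at 6 h and 1682 at 12 h without MP525 and to 879 and 1265 without MP570, against 2948 and 3395 with all arrays. These lists are described by counts and medians only.

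Mitochondrial beta-oxidation, the step after Cpt2, had 7 of 21 genes called higher and 1 lower at both times, with a median log2 fold change of 0.21 at 6 h and 0.37 at 12 h, against -0.02 and 0.01 over all genes. Without MP525 these counts were 2 higher and 1 lower at 6 h and 3 and 1 at 12 h, and without MP570 they were 3 and 0 at 6 h and 2 and 1 at 12 h. In the blocked fit they were 10 and 2 at 6 h, and 11 and 2 at 12 h. Acadm, the medium-chain acyl-CoA dehydrogenase, rose by 0.96 ± 0.13 after 6 h and 0.68 ± 0.13 after 12 h (limma adjusted p = 0.000684 and 0.00378), and kept its call without each array and each tumour. Hadha, a subunit of the trifunctional protein that handles long-chain acyl-CoA, rose by 0.54 ± 0.10 and 0.57 ± 0.10 (adjusted p = 0.00496 and 0.00312), a call lost without MP525 (0.0711 and 0.0559) or MP570 (0.0776 and 0.0667). Eci1, an isomerase needed for unsaturated chains, fell by 0.81 ± 0.14 at 6 h and 0.93 ± 0.14 at 12 h (adjusted p = 0.00242 and 0.000915), with the 6 h call lost without MP570 (0.0782). Acadvl, the very-long-chain dehydrogenase, had 0.30 and 0.55 and was not called (adjusted p = 0.43 and 0.104) except with the block (0.0311 and 0.000537).

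**Figure D4:**
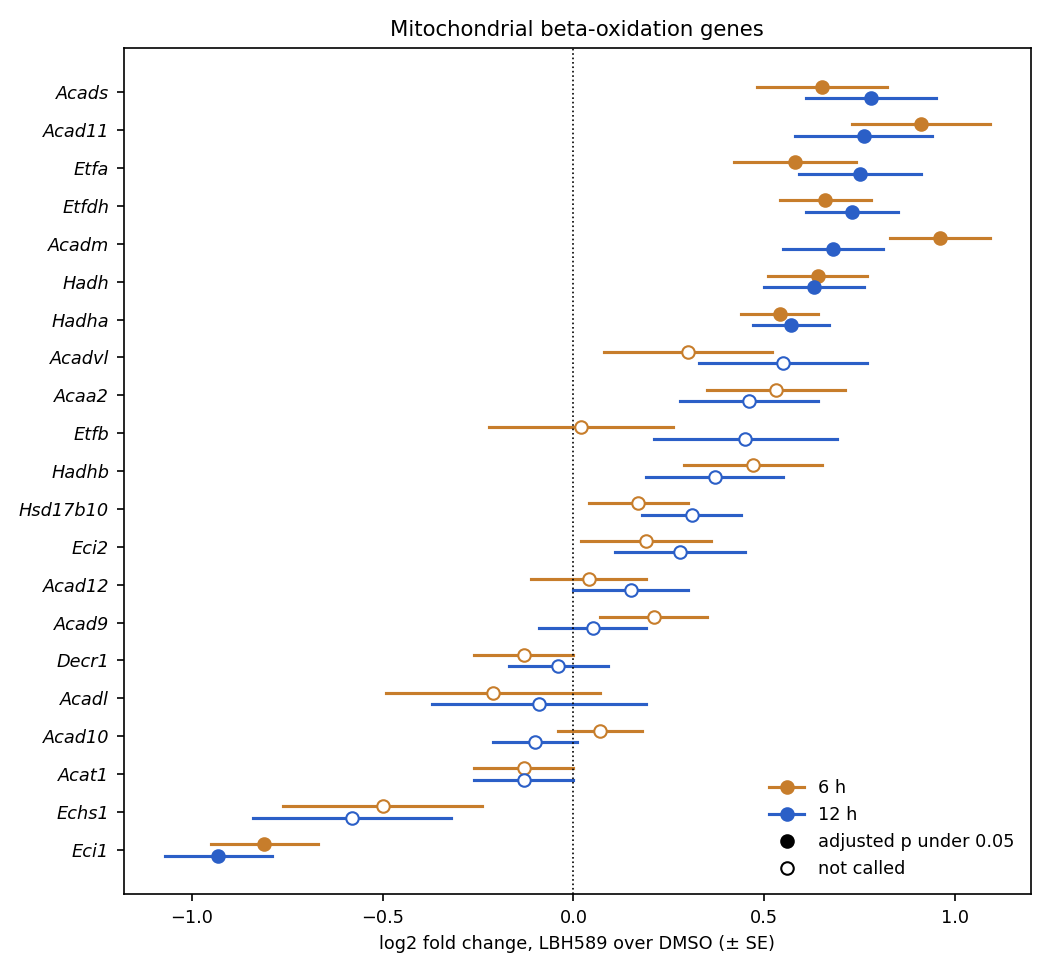
Log2 fold change of LBH589 over DMSO with its SE (horizontal axis) for the 21 genes of mitochondrial beta-oxidation, orange for 6 h and blue for 12 h. Filled points were called at an adjusted p under 0.05, 7 higher and 1 lower at each time, and open points were not.

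Among 15 tested genes of fatty acid uptake and binding, 2 were called higher and 0 lower at 6 h, and 2 higher and 1 lower at 12 h, near the shares over all genes of 15.8% and 18.2%. With the block these counts were 4 and 1 at both times. Slc27a1, a fatty acid transport protein of the plasma membrane, rose by 1.22 ± 0.14 at both times (limma adjusted p = 0.00035 and 0.000287). Cd36, another fatty acid transporter, was too dim to be tested. Among 9 genes of carnitine supply and exchange, 2 were called higher at 6 h and 1 at 12 h, and 3 and 2 with the block, with none lower. Slc25a29, a mitochondrial carrier related to Slc25a20, rose by 0.81 ± 0.13 at 6 h (adjusted p = 0.00208). The carnitine transporter gene Slc22a5 (-0.10 and 0.01) and the carnitine acetyltransferase gene Crat (0.31 and 0.02) were not called (adjusted p = 0.76 and 0.984, and 0.281 and 0.967), though Crat was at 6 h with the block (0.0396).

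Of 15 genes around malonyl-CoA and AMPK, which control CPT1 activity, 1 was called higher and 1 lower at 6 h, and 2 and 3 at 12 h. With the block 4 were higher and 5 lower at both times. Acaca, which encodes the acetyl-CoA carboxylase of the cytosol, fell by 0.66 ± 0.10 at 12 h (limma adjusted p = 0.00133), and was at -0.28 at 6 h, called only with the block (0.0224, against 0.0938 without it). Acacb, the carboxylase form at the mitochondrial surface, rose by 0.77 ± 0.16 and 0.91 ± 0.16 (adjusted p = 0.0088 and 0.00294), a call lost without MP525 (0.129 and 0.053). Mlycd, which degrades malonyl-CoA, rose by 0.35 ± 0.08 at 12 h (adjusted p = 0.0117), a call lost without any 1 of MP525 (0.115), MP567 (0.0522) or MP570 (0.146). Fasn, the fatty acid synthase that uses malonyl-CoA, fell by 0.74 ± 0.10 at 12 h (adjusted p = 0.000492). Genes of malonyl-CoA production thus did not move in 1 direction.

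Of 17 PPAR and PGC1 regulators, whose proteins drive Cpt1a and beta-oxidation genes in other tissues, 2 were called higher and 2 lower at 6 h, and 4 and 3 at 12 h. With the block these counts were 5 and 4, and 5 and 3. Ppargc1a, which encodes the coactivator PGC1-alpha, rose by 1.83 ± 0.32 after 6 h and 1.84 ± 0.32 after 12 h (limma adjusted p = 0.00315 and 0.00258), a call lost without MP570 (0.0822 and 0.0538). Ppara rose by 0.58 ± 0.17 at 12 h (adjusted p = 0.0329), and was at 0.34 at 6 h without a call (0.212). The 12 h call of Ppara was lost without MP525 (0.21) or MP570 (0.165), and without 4 single arrays. Among 14 tested PPAR target genes outside the set, 1 was called higher and 1 lower at 6 h, and 2 and 1 at 12 h, with medians of -0.01 and 0.06. With the block they were 2 and 3, and 4 and 2. Txnip, an inhibitor of glucose uptake, rose by 1.54 ± 0.27 at 12 h (adjusted p = 0.00269). Plin2, a lipid droplet gene, was the 1 called lower, at -0.57 ± 0.17 and -0.54 ± 0.17 (limma adjusted p = 0.0431 and 0.0464). Its calls were lost without MP525 (0.356 and 0.257) or MP570 (0.181 and 0.161).

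Among 13 other acyl-CoA synthetases, which act on shorter or very long chains, 0 were called at 6 h, and 2 higher and 1 lower at 12 h. With the block, 2 were called higher and 1 lower at 6 h, and 4 and 2 at 12 h. At 6 h these were Acss2 (0.76, adjusted p = 2.77e-05), Acss3 (0.60, 0.00164) and Aasdh (-0.40, 0.00287), which without it had limma adjusted p of 0.055, 0.0506 and 0.108. Of 13 tested acyl-CoA thioesterases, 1 was called higher and 1 lower at each time, and with the block 2 and 2 at 6 h and 1 and 3 at 12 h. Acot6 fell by 0.98 ± 0.12 after 6 h and 0.64 ± 0.12 after 12 h (limma adjusted p = 0.000391 and 0.00355). Of 23 triglyceride and lipid droplet genes, 3 were called higher and 2 lower at 6 h, and 3 and 3 at 12 h. With the block these counts were 6 and 3, and 7 and 3. Pnpla2, the lipase that releases fatty acids from stored triglyceride, rose by 1.44 ± 0.15 and 1.11 ± 0.15 (adjusted p = 0.000179 and 0.00066). Of 15 genes of arachidonoyl lipid remodelling and ferroptosis, 2 were called higher at 6 h, and 3 higher and 1 lower at 12 h. With the block 3 were higher and 3 lower at 6 h, and 5 and 3 at 12 h. The list also holds genes of cystine import and iron supply, such as Slc7a11 and Tfrc. Mboat7, which places arachidonate in phosphatidylinositol, rose by 1.12 ± 0.16 at 6 h (adjusted p = 0.000817). Lpcat3, which places it in other phospholipids, had 0.65 and 0.60 and was called with the block (6.06e-05 and 0.000112) and not without it (0.119 and 0.143).

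Of 18 tested genes of fatty acid desaturation and elongation, 1 was called higher and 3 lower at 6 h, and 2 and 5 at 12 h. With the block these counts were 4 and 5, and 4 and 8, and the medians were -0.01 and -0.02. Fads2, the delta-6 desaturase of polyunsaturated fatty acid synthesis, fell by 1.02 ± 0.08 after 6 h and 1.14 ± 0.08 after 12 h (limma adjusted p = 5.09e-05 and 1.97e-05). Hacd1, a dehydratase of the elongation cycle, fell by 1.41 ± 0.14 and 1.83 ± 0.14 (adjusted p = 0.000125 and 2.53e-05). Elovl6, an elongase of saturated chains, fell by 1.18 ± 0.21 at 12 h (adjusted p = 0.00294). Those called higher were Elovl5 at 6 h (0.45, limma adjusted p = 0.00592), and Fads3 (1.02, 0.019) and Elovl3 (0.75, 0.00378) at 12 h. Of 9 tested genes of ketone body metabolism, 0 were called higher at either time, 2 lower at 6 h and 1 lower at 12 h, with medians of -0.28 and -0.24. With the block 5 were called lower at both times, when 16.0% of all genes were at 6 h and 18.5% at 12 h. Among them were Bdh1 (-0.62 and -0.73), Oxct1 (-0.44 and -0.74) and Slc16a7 (-0.60 and -0.51). Bdh1 encodes an enzyme that interconverts the ketone bodies, and Oxct1 the enzyme that activates acetoacetate for use. Of 14 peroxisomal oxidation genes, 3 were called higher at each time, 5 with the block, and 0 lower, Hacl1 among them (0.50 ± 0.09 at 12 h, adjusted p = 0.00246).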

How the data were processed

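Affymetrix Mouse Gene 2.0 ST arrays measured the total RNA of 12 cultures. The deposited values are log2 expression values per probe set, a scale read from their range. The submitters' processing notes list Agilent Feature Extraction 10.7.3.1, which reads arrays of another maker; the sources used here give no summarisation or normalization step. The values were not normalised further. Of 41345 probe sets, 23521 named 1 gene by the array annotation, 1814 named several and 16010 were not listed; symbols were updated through RefSeq. The probe set with the highest mean stood for each of 22180 genes, and 18652 genes above the array's 25th percentile on at least 3 arrays were tested, all 7 measured members among them.

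The 4 group means were fitted with limma 3.58.1 (R 4.3.3), with a trended eBayes prior and 8 residual degrees of freedom. Two-sided p-values were adjusted by Benjamini-Hochberg across 18652 genes. Every tumour has 1 array in each group. Same-tumour arrays correlated at 0.45 to 0.805 in deviations from group means, and other pairs at -0.51 to -0.0577, so tumour was added as a block, with 6 degrees of freedom left, as an alternative. Tumour levels were tested by F tests in that fit, and tumour effects with a tumour-by-treatment term (4 degrees of freedom). The members, gene lists and tests were chosen with earlier results of these data known. Pathway genes were mostly named by size among called genes, with 12 always named. Of these, mostly those called with any array or tumour left out are printed, which was decided with their values in view. Promoter sequences are RefSeq's, GRCm38.p6. The scripts were tested on simulated data.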

Additional observations from a re-analysis of the deposited data

Results flagged for a closer look

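The drug effect on Acsl4 differed between tumours by the limma F test (adjusted p = 0.0426, called in 9 of 20 settings) and between MP567 and MP525 as a pair (adjusted p = 0.023). It was positive at both times in MP525 (mean 0.07) and negative at both times in MP567 (-0.47) and MP570 (-0.10). The effect on Cpt1a was larger in MP570 than in MP567 (limma adjusted p = 0.034). The F test over the 3 tumours did not call it (adjusted p = 0.0501) and called it in only 3 of 20 settings. The tests between pairs of tumours were not repeated with single arrays left out, and the cause of these differences was not tested.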

How the results depend on the processing

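Of 480 values of single genes under other settings, 456 counted as unchanged. For tested changes this means the same direction and the same side of the threshold. The drug effects of Cpt1a and Acsl5 carry no test. For them it means the same direction and a shift smaller than the SD of the DMSO arrays at that time. With the tumour as a fixed block, 3 of the 5 tested members were called at 6 h in place of 1, and 2 with it as a random block; the replicate block changed no count of members at 12 h. For the pathway lists the block gave 50 genes higher and 32 lower at 6 h, and 55 and 35 at 12 h, of 191 tested. Over all genes it called 18.0% higher and 16.0% lower at 6 h, and 18.6% and 18.5% at 12 h. Leaving out 1 array or 1 tumour at a time, the members called ranged from 0 to 1 at 6 h, from 0 to 2 at 12 h and from 0 to 2 for the effect between tumours. Without 1 tumour, list genes called higher ranged from 9 to 18 at 6 h and from 9 to 28 at 12 h, and those lower from 3 to 14 and from 8 to 16. With the mean of probe sets, 1 member was called at 12 h (Acsl6 was not, adjusted p = 0.0666), Acsl5 minus Acsl6 was -1.99 at 12 h, and Acsl6 minus Acsl4 was -0.24 at 6 h. In tumour MP567 alone the last difference was 0.20 at 12 h. For the effect between tumours, 0 members were called with arrays centred on their medians, without a filter or without the mean-variance trend, and 2 with a filter at the 50th percentile.

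Leaving out arrays or tumours turned the sign of some uncalled changes: Acsl4 ranged from -0.22 to 0.15 at 6 h, from -0.44 to 0.04 at 12 h and from -0.40 to 0.12 for the difference of effects, Cpt1c from -0.22 to 0.00 at 12 h, and Cpt1a between 6 and 12 h in DMSO from -0.39 to 0.06. Over 25 settings, Cpt1a stayed between 2.51 and 2.82 at 6 h and 2.80 and 3.25 at 12 h, and Acsl5 between -2.52 and -2.28 and between -2.53 and -2.33. Quantile normalization and testing every probe set on its own moved no count of called members. For changes with time, alternatives were run on the counts and on the lowest and highest member. The cause of the shifts was not tested, and omissions of a tumour also leave fewer arrays. Drug and time effects with arrays or tumours left out were fitted without the block, so calls lost there ignore the pairing by tumour.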
